A study of Homo sapiens with 4 samples.

Results

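The 10 genes described here encode inflammatory cytokines and chemokines: *CXCL10*, *CXCL11*, *CCL5*, *CCL2*, *CXCL8*, *CXCL1*, *CXCL2*, *IL6*, *LIF* and *IL1B*. They were listed by name, matched to the deposited table by Entrez gene identifier, and split into 3 interferon-induced genes (*CXCL10*, *CXCL11*, *CCL5*) and 7 genes best known as targets of the transcription factor NF-kB. Of the 46660 gene identifiers in the table, these 10 accounted for 9, since *CXCL1* had 0 rows and was not analysed here.

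The RNA-seq data covered 4 libraries from U87MG and U251MG, which are established human glioblastoma cell lines, with 1 control and 1 shFLI1 library in each. The shFLI1 cells were infected with lentivirus carrying a short hairpin RNA against *FLI1*, an ETS family transcription factor, and the control cells with empty vector (pGreen) lentivirus, which the sample titles call shControl. All 4 were puromycin-selected pools of stably infected cells grown in serum-containing medium, and the labels name no added cytokine. Infection and selection were thus shared by control and knockdown cells. The labels do not name the hairpin. Each group being a single library, no spread between replicates underlies the differences within a line, and their intervals describe counting error alone.

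Chemokines are small secreted proteins that steer leukocytes along concentration gradients through G protein-coupled receptors. CXCL10 and CXCL11 attract T cells through CXCR3 and are transcribed in response to interferons, whereas CXCL8, CXCL1 and CXCL2 attract neutrophils through CXCR1 and CXCR2 and depend largely on NF-kB and AP-1. CCL2 recruits monocytes and macrophages to gliomas through CCR2, CCL5 attracts T cells and monocytes, IL-6 and LIF signal through the shared receptor subunit gp130 to STAT3, and IL-1 beta is an upstream activator of NF-kB in many cell types.

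Promoter sequences were examined for motifs of interferon-responsive factors, NF-kB, AP-1 and ETS factors. RefSeq promoter windows of GRCh38.p14, reaching from 250 bases before to 50 bases after the gene start, were matched for 7 of the 10 genes, namely *CXCL10*, *CXCL11*, *CXCL8*, *CXCL1*, *CXCL2*, *IL6* and *IL1B*. Both strands were searched for the core of the interferon-stimulated response element (ISRE), which is a pair of GAAA letters 2 bases apart, the NF-kB site GGNNTTNCC, the AP-1 site TGANTCA, the ETS site CNGGAAGT and the TATA box TATAAA, which do not overlap in these windows. The bases before the start of *CXCL10* (4:76023498-76023747, minus strand), *CXCL8* (4:73740319-73740568, plus strand) and *CXCL2* (4:74099196-74099445, minus strand) are printed below because these genes represent an interferon-induced chemokine, the member that was lower in both knockdown libraries with most reads, and a paired NF-kB motif promoter. Each runs 5′ to 3′ on the strand of its gene, ends 1 base before the RefSeq start, and has its motif matches in capitals. Motif positions count from that start, which can differ from the GENCODE gene positions given further on. The GENCODE start of *CXCL8*, 73740519, lies inside its printed window, and the starts of *CXCL11*, *IL6* and *IL1B* differ as well.
CXCL10: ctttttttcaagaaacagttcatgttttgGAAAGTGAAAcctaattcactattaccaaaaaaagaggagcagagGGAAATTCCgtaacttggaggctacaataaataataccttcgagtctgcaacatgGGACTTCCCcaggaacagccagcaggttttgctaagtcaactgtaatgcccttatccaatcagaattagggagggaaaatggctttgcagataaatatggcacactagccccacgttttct
CXCL8: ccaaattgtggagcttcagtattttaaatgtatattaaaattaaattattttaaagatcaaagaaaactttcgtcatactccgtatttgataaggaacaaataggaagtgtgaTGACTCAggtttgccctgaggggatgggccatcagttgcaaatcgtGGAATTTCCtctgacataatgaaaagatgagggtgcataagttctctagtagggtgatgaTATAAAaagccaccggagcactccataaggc
CXCL2: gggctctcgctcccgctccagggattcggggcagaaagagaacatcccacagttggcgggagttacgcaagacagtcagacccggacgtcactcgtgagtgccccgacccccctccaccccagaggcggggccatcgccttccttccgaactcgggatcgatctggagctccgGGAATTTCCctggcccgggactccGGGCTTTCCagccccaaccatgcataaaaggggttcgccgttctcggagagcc
In *CXCL10* the ISRE core lay at bases -221 to -212 from the start and was followed by NF-kB matches beginning at -176 and -121. *CXCL8* held an AP-1 match at -137, an NF-kB match at -91 and a TATA box at -31. *CXCL2* held NF-kB matches at -77 and -53, and its paralog *CXCL1* held the same 9 letters of each match at -78 and -53. *CXCL11* had 1 match each for AP-1, NF-kB and the TATA box and none for the ISRE core, *IL6* had 1 NF-kB match at -72, and *IL1B* had no match for any of the 5 motifs. An NF-kB match was thus present in 6 of the 7 windows, against 17.1% of 35116 promoters of the same length, and an ISRE core in 1 of 7, against 3.57%. The AP-1 motif (7.71% of all promoters) and the TATA box (11.5%) occurred in *CXCL11* and *CXCL8*, whereas the ETS motif (9.37% of all promoters) was found in 0 of the 7. A match describes letters in a window and is not a measurement of binding.

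The deposited expected (estimated) counts were summed by gene, rounded, and expressed as CPM, a level relative to the library total, after TMM correction of the totals for composition. The libraries held from 12229780 to 28891055 counts, and each shFLI1 library was deeper than its control, by 1.74 times in U87MG and 1.60 times in U251MG. *FLI1* itself checked the labels. Its level was 9.34 CPM in U87MG control and 2.34 CPM in U87MG shFLI1 (25.0% of control), and 12.1 CPM in U251MG control and 3.71 CPM in U251MG shFLI1 (30.6%). The glial and mesenchymal markers *GFAP*, *NES*, *VIM* and *CD44* were all expressed in every library, and the leukocyte marker *PTPRC* had at most 5 counts in any library. From the same glioma list, and named after their values were seen, *SOX2* was at 117 to 174 CPM, whereas the glial marker *S100B* was barely counted. *S100B* had 1, 7, 6 and 11 counts in U87MG control, U87MG shFLI1, U251MG control and U251MG shFLI1.

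Several of the 9 genes were near the lower limit of these libraries. Fewer than 10 counts were found for 3 of them in U87MG control, 4 in U87MG shFLI1, 1 in U251MG control and 4 in U251MG shFLI1. Depth set what 10 counts meant, from 0.873 CPM in the U87MG control library to 0.334 CPM in U251MG shFLI1. *CXCL11* was the only one below 10 counts in all 4 libraries, with 1 count in U87MG control, 0 in U87MG shFLI1, 2 in U251MG control and 0 in U251MG shFLI1. At this depth no difference in *CXCL11* was detectable, and a count of 0 allowed up to 0.135 CPM in U87MG shFLI1 and 0.1 CPM in U251MG shFLI1 (3 counts, a one-sided limit), whereas the two-sided Poisson intervals plotted with the levels reach 0.166 and 0.123 CPM. *CCL5* reached 10 counts only in U251MG control, and *IL1B* likewise, whereas *CXCL10* reached it in both controls and in neither shFLI1 library. *CCL2*, *CXCL8*, *CXCL2*, *IL6* and *LIF* had 10 counts or more in every library.

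**Figure D1:**
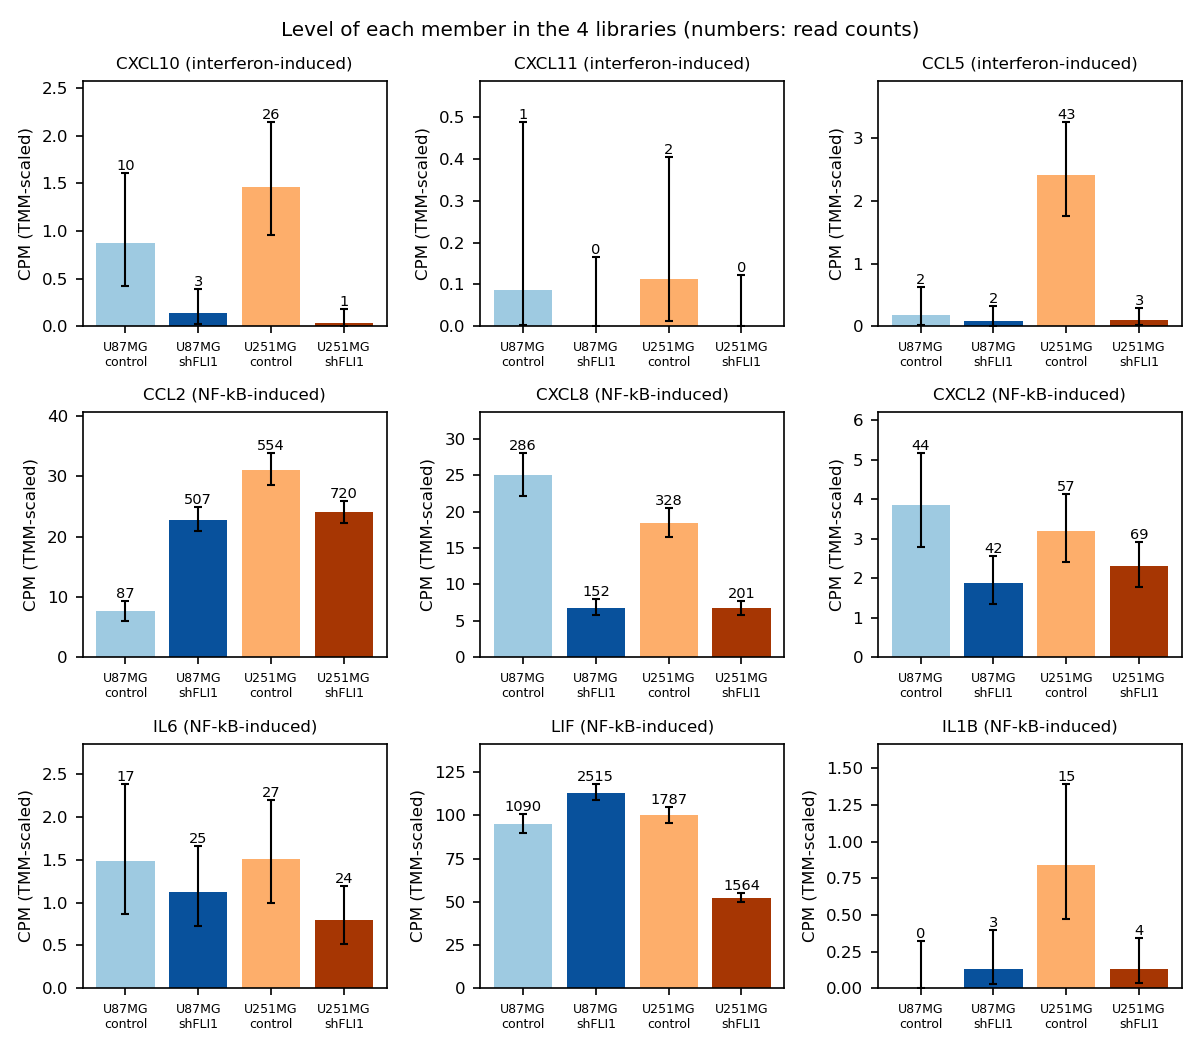
Level of each of the 9 genes in CPM after TMM scaling (y axis, from 0, with its own scale in each panel) in the 4 libraries (x axis). Bars are single libraries, error bars are exact 95% Poisson intervals of the count (counting error only), and the printed numbers are read counts, such as 286 and 152 for *CXCL8* in U87MG control and shFLI1.

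Levels can be set against each other only per transcript length, for which the authors' FPKM values were summed by gene. In U87MG control the order began with *LIF* (24.89 FPKM), *CXCL8* (17.92 FPKM) and *CCL2* (14.55 FPKM), and the counting intervals of the last 2 overlapped. *CCL2* led the other libraries, with 47.85 FPKM in U87MG shFLI1, 63.68 FPKM in U251MG control and 51.67 FPKM in U251MG shFLI1, each time followed by *LIF* and then by *CXCL8* without overlap of neighbouring intervals. *CXCL2* was always the fourth, between 2.53 and 4.65 FPKM. *IL6* stayed between 0.89 and 1.5 FPKM. In U251MG control *CXCL2*, *CCL5*, *CXCL10*, *IL6* and *IL1B* formed a run from 3.84 down to 0.67 FPKM in which every pair of neighbours overlapped. *CXCL10* was at 0.89 FPKM in U87MG control and 1.58 FPKM in U251MG control, and at 0.15 and 0.04 FPKM in the corresponding shFLI1 libraries. *CXCL11* was the lowest in 3 libraries and *IL1B*, listed at 0, in U87MG control.

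**Figure D2:**
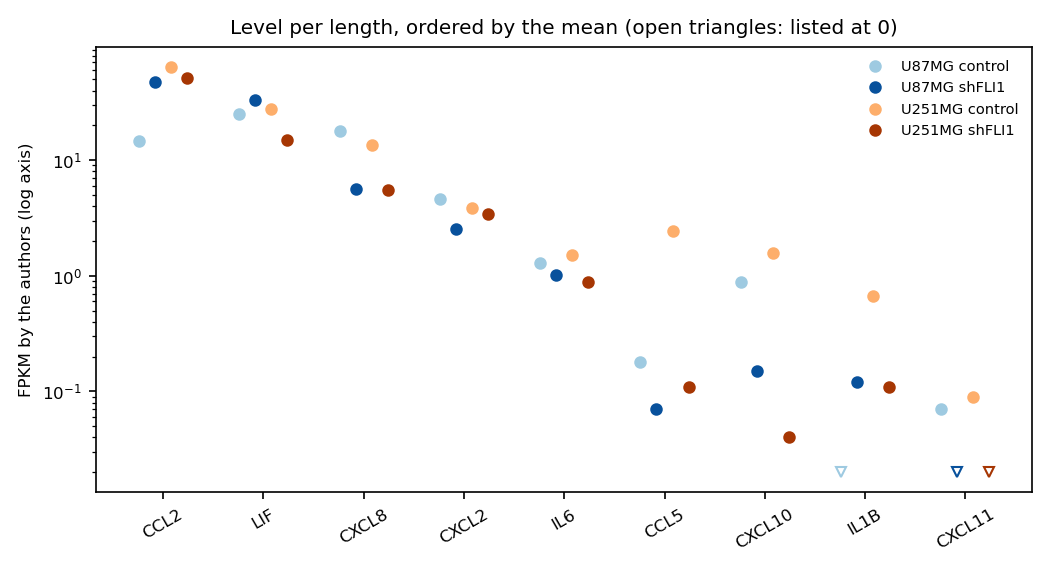
FPKM of the 9 genes summed over their transcripts (y axis, log scale), ordered by the mean of the 4 libraries (x axis). Points are single libraries and open triangles mark genes listed at 0. *CCL2*, *LIF* and *CXCL8* lie at 5.5 FPKM or above in all 4 libraries, and the 2 control points of *CXCL10* lie above both its shFLI1 points.

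The first question was how each interferon-induced chemokine differed between knockdown and control cells. *CXCL10* (4:76021118-76023497, minus strand, GENCODE on GRCh38) was counted 10 times in U87MG control and 3 times in U87MG shFLI1, which is 0.873 and 0.135 CPM. The U251MG control and shFLI1 libraries held 26 counts and 1 count, which is 1.46 and 0.0334 CPM. Both controls were above both shFLI1 libraries. The ratio of shFLI1 to control was 0.154 (95% Clopper-Pearson interval of the read proportion, 0.0273 to 0.6) in U87MG and 0.0229 (0.000558 to 0.139) in U251MG. With a prior count of 2, which pulls low counts towards no change, the log2 fold changes were -2.06 and -3.56.

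*CCL5* (17:35871491-35880793, minus strand) separated the cell lines. It had 2 counts in each U87MG library, at or below the floor of 3 counts, so no fold is given there. The U251MG control held 43 counts and its shFLI1 library 3, which is 2.41 and 0.1 CPM. The ratio was 0.0415 (0.00824 to 0.13), with a log2 fold change of -3.66. In U251MG control 94.9% of the *CCL5* counts sat on a row that the table lists as a further placement of the same transcript, and 34.3% of the 3 counts in U251MG shFLI1 did, so the gene total rather than a single row was used. The U251MG control level of *CCL5* was 13.8 times that of U87MG control (3.6 to 118).

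*CXCL8* (4:73740519-73743716, plus strand), the neutrophil-attracting interleukin-8, was lower in the shFLI1 cells of both lines. The U87MG control and shFLI1 libraries held 286 and 152 counts, which is 25 and 6.83 CPM. The U251MG control and shFLI1 libraries held 328 and 201 counts, which is 18.4 and 6.71 CPM. Both control levels exceeded both shFLI1 levels, and the shFLI1 libraries were almost level with each other, with a U251MG to U87MG ratio of 0.983 (0.792 to 1.22). Relative to its control, the shFLI1 level was 27.4% for U87MG and 36.5% for U251MG, with log2 fold changes of -1.85 (-2.16 to -1.58) and -1.44 (-1.72 to -1.2). The counts were carried by 1 transcript, which took from 93.2% to 96.3% of the gene's counts in the 4 libraries.

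*CCL2* (17:34255274-34257208, plus strand) moved in opposite directions. Its counts were 87 in U87MG control, 507 in U87MG shFLI1, 554 in U251MG control and 720 in U251MG shFLI1. These are 7.6, 22.8, 31.1 and 24.0 CPM, so U87MG control stood apart below the other 3 libraries. The ratio of shFLI1 to control was 3 (2.39 to 3.81) in U87MG and 0.774 (0.692 to 0.866) in U251MG. The controls of the lines differed 4.09-fold (3.26 to 5.19), whereas the shFLI1 libraries differed 1.06-fold (0.941 to 1.19). The difference between the log2 fold changes, U87MG minus U251MG, was 1.95 with a counting interval from 1.59 to 2.32. No replicate libraries exist with which to test that difference.

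*LIF* (22:30240453-30246759, minus strand), a cytokine of the IL-6 family, had the most counts. In U87MG these were 1090 for the control and 2515 for shFLI1, which is 95.2 and 113 CPM. In U251MG they were 1787 for the control and 1564 for shFLI1, which is 100 and 52.2 CPM. The control libraries were close to each other, at a ratio of 1.05 (0.976 to 1.14), and the shFLI1 libraries lay above and below them. The log2 fold changes were 0.25 (0.15 to 0.35) and -0.94 (-1.04 to -0.84), neither past 2-fold, and their difference was 1.19 (1.05 to 1.33). The main transcript held 72.3% and 78.0% of the *LIF* counts in U87MG control and shFLI1 and 90.2% and 85.9% in U251MG. A second, predicted transcript held 22.2%, 15.6%, 8.5% and 8.4% in the same order.

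*CXCL2* (4:74097040-74099196, minus strand), a close relative of *CXCL1* in the chromosome 4 chemokine cluster, had 44 and 42 counts in U87MG control and shFLI1, which is 3.84 and 1.89 CPM. The U251MG counts were 57 and 69, which is 3.2 and 2.3 CPM. The shFLI1 level was the lower in each cell line, with log2 fold changes of -0.99 (-1.67 to -0.38), which just missed 2-fold, and -0.46 (-1 to 0.06). Reads of *CXCL1*, *CXCL2* and *CXCL3* come from near-identical sequences and could have been divided between them during counting, so the values of this group are uncertain.

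*IL6* (7:22725884-22732002, plus strand) had 17, 25, 27 and 24 counts in U87MG control, U87MG shFLI1, U251MG control and U251MG shFLI1. These correspond to 1.48, 1.12, 1.51 and 0.801 CPM. The log2 fold changes were -0.37 (-1.35 to 0.58) in U87MG and -0.84 (-1.77 to -0.07) in U251MG. Neither passed 2-fold, and the 4 Poisson intervals overlapped. *IL1B* (2:112829751-112836816, minus strand) had 0, 3, 15 and 4 counts in the same order, or 0, 0.135, 0.841 and 0.134 CPM. U251MG control was the only library with 10 counts or more, and there the ratio of shFLI1 to control was 0.159 (0.0384 to 0.498), with a log2 fold change of -2.02. All 15 counts of the control were on the main transcript and all 4 of the shFLI1 library on a predicted one, so that comparison rests on different transcripts. In U87MG both libraries were at or below 3 counts, and no fold is given.

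**Figure D3:**
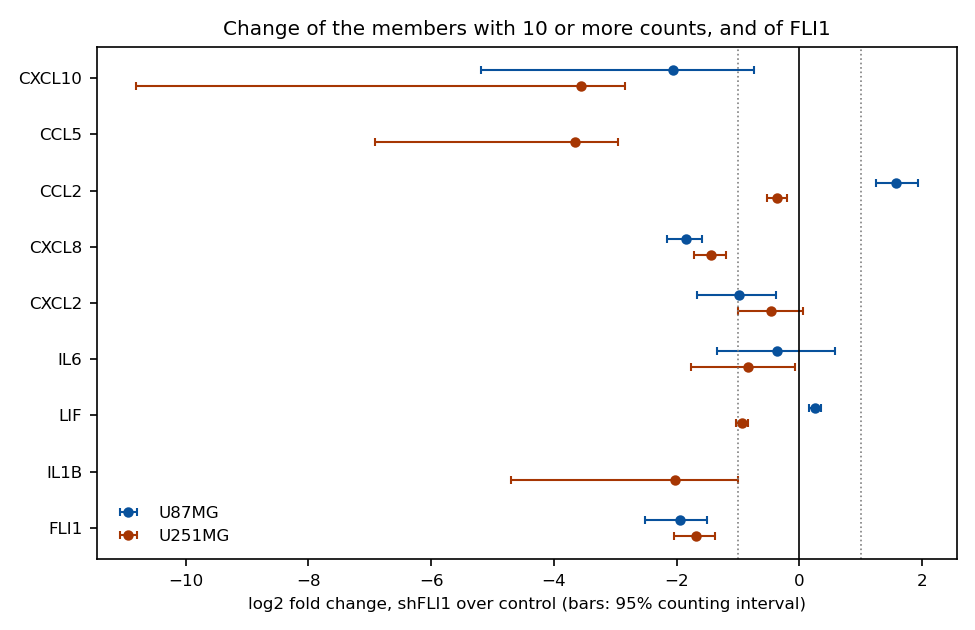
Log2 fold change of shFLI1 over control (x axis) for each gene with 10 or more counts in a library of that cell line, and for *FLI1* (y axis). Points are 1 pair of libraries, bars are 95% intervals of the read proportion for counting error only, and dotted lines mark 2-fold. *CXCL10* and *CXCL8* lie left of -1 in both cell lines, while *CCL2* is at 1.57 in U87MG and -0.37 in U251MG.

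Calls required a change past 2-fold with an interval that excluded no change, among genes with 10 or more counts in either library of the cell line. In U87MG 6 of the 10 could be assessed, of which 2 (*CXCL10* and *CXCL8*) were called lower and 1 (*CCL2*) higher. Among all 17355 genes assessed there, 4.19% were called lower and 7.21% higher. In U251MG 8 could be assessed, of which 4 (*CXCL10*, *CCL5*, *CXCL8* and *IL1B*) were called lower and 0 higher, against 4% lower and 4.17% higher among 18222 genes. Some of these calls were tied to the count minimum, because *CXCL10* in both cell lines, and *CCL5* and *IL1B* in U251MG, could be assessed only through their control library and so had to be higher there. This held for 1 of the 2 lower calls in U87MG and 3 of the 4 in U251MG, and for every assessment of an interferon-induced gene. With 10 or more counts in both libraries there were 5 members in each cell line, of which 1 (*CXCL8*) was called lower in each, and 1 (*CCL2*) higher in U87MG. The NF-kB-induced genes were called lower in 1 of 5 and higher in 1 of 5 in U87MG, and lower in 2 of 6 in U251MG. The median log2 fold change of the NF-kB-induced genes was -0.37 in U87MG and -0.89 in U251MG, beside medians of 0.059 and 0.041 over all genes assessed. Scaling by total counts in place of TMM moved the latter medians to 0.218 and 0.113. In U87MG *CXCL10* was no longer called when the shFLI1 library was thinned to the depth of its control.

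The only knockdown contrast with replicates took the 2 cell lines as replicates of the knockdown. It used edgeR's quasi-likelihood test over 16649 genes, blocked on the cell line and adjusted by Benjamini-Hochberg. For each gene the spread in this fit came only from how far the responses of the cell lines differed, together with information shared over genes. The p-values are therefore uncertain. Over all genes, 2.14% passed as lower and 0.931% as higher in shFLI1 cells. Of the 6 members that could be fitted, 1 passed: *CXCL8* fell by 1.67 on the log2 scale (edgeR's quasi-likelihood test, adjusted p = 0.00393), and it was lower in 2 of 2 cell lines. *CXCL10* had a larger fitted log2 change of -3.82, also lower in 2 of 2 cell lines, but missed the threshold (edgeR adjusted p = 0.0527). Only its control libraries reached 10 counts, so its entry into this fit depended on the group where it was higher. With DESeq2 size factors in place of TMM *CXCL10* passed (edgeR adjusted p = 0.048). Over the edgeR alternatives that gave it an adjusted p, the values ran from 9e-04 to 0.824. No adjusted p was available for it from DESeq2 itself or with at least 100 counts in every library. The fitted log2 changes were -0.75 for *CXCL2* (edgeR adjusted p = 0.34), -0.68 for *IL6* (0.539), -0.36 for *LIF* (0.515) and 0.49 for *CCL2* (0.572). *CXCL11*, *CCL5* and *IL1B* had too few counts for this fit. *FLI1* fell by 1.85 on the same scale (edgeR adjusted p = 0.00688). The adjusted p of *CXCL8* ran from 2.28e-12 to 0.663 over the alternatives, the highest without the cell line block.

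The same fit asked whether levels differed between U251MG and U87MG with the knockdown as a block. Here the control and shFLI1 libraries of a cell line stood in as its replicates, also for genes that responded differently in the lines. Over all genes 18.7% did. *CCL5* (2 counts in U87MG control, 43 in U251MG control) and *IL1B* (0 and 15) had too few counts to be fitted. Of the 6 members that were fitted, too few to be set apart from that share, 0 passed edgeR's test, and 2 had an unadjusted p below 0.05. DESeq2 also gave 0. Those 2 were *CCL2*, with a log2 difference of 0.89, U251MG minus U87MG (edgeR adjusted p = 0.136), and *LIF*, with -0.60 (edgeR adjusted p = 0.127). Both were the genes whose change differed in direction between the cell lines, and their level in U87MG relative to U251MG therefore depended on which pair of libraries was taken. For *LIF* the U251MG to U87MG ratio was 1.05 in controls and 0.462 (0.434 to 0.493) in shFLI1 cells.

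Genes of interferon signalling and its classical markers were also lower in shFLI1 cells. Of 15 such genes, 14 had enough counts in each cell line. In U87MG 11 were called lower and 0 higher, with a median log2 fold change of -2, and in U251MG 13 were called lower and 0 higher, with a median of -3.76. In the edgeR test over both lines 13 of 14 fell. *STAT2*, a transcription factor of the type I interferon pathway, changed on the log2 scale by -1.36 in U87MG and -1.51 in U251MG (shared fit, edgeR adjusted p = 0.00124). *IRF9*, which acts with it and was named after its values were seen, was not called in U87MG (-0.96) and was called lower in U251MG (-1.31). *RSAD2*, an antiviral enzyme, went from 78.9 to 2.97 CPM in U87MG and from 134 to 2.57 CPM in U251MG. *ISG15*, a ubiquitin-like modifier, *IFIT1*, *IFIT2*, *IFIT3*, *MX1*, *OAS1*, *GBP1* and *IDO1* were called lower in both cell lines, with log2 fold changes from -1.56 (*GBP1*) to -3.12 (*MX1*) in U87MG and from -3.69 (*IFIT2*) to -4.43 (*IFIT3*) in U251MG. *IDO1* could be assessed in U251MG only through its control, with 53 counts there and 4 in shFLI1. The interferon genes themselves were barely counted. Of 21 listed, 5 had a row, all stayed under 10 counts in every library, and their summed counts were 9 in U87MG control, 17 in U87MG shFLI1, 8 in U251MG control and 6 in U251MG shFLI1.

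The NF-kB system was more mixed. Of 16 subunit and feedback genes, 4 were called lower in U87MG and 2 in U251MG and 0 were called higher in either, with medians of -0.29 and -0.13. *RELB*, the subunit of the non-canonical pathway, was at 31.1 and 9.8 CPM in U87MG control and shFLI1 and at 16.9 and 7.08 CPM in U251MG control and shFLI1, and fell in the shared fit (log2 -1.48, edgeR adjusted p = 0.00569). *RELA*, the main activating subunit, changed by 0.11 and -0.15 and was not called in either. *NFKBIA*, the feedback inhibitor, and *NFKB2*, a further subunit, also fell in the shared fit, by 0.88 and 0.87 on the log2 scale (edgeR adjusted p = 0.023 and 0.0458), and were named after their values were seen. *TNIP1* (-0.305 in U87MG and -0.251 in U251MG), *CYLD* (0.164 and 0.047) and *IKBKG* (-0.269 and -0.116) were not called in either cell line. Of 16 other NF-kB target genes, 14 had a row. In U87MG 3 of the 11 assessed were called lower (median -0.43), and in U251MG 5 of the 10 assessed (median -1), with 0 higher. *TNFRSF9*, named after its values were seen, could be assessed in U87MG only through its control, with 17 counts there and 5 in shFLI1. *CFB*, a complement factor that interferon also induces, changed by -1.55 and -2.23 (edgeR adjusted p = 0.00199), and *TRAF1*, a signalling adaptor, by -2.67 and -1.31 (edgeR adjusted p = 0.0584). *SOD2*, a mitochondrial enzyme strongly induced by NF-kB, was not called, at 0.09 and 0.11. *PLAU* was not called either, and moved in opposite directions, at 0.525 in U87MG and -0.607 in U251MG. *TNFAIP2* changed by -0.43 and -1.161, and was called lower in U251MG only.

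**Figure D4:**
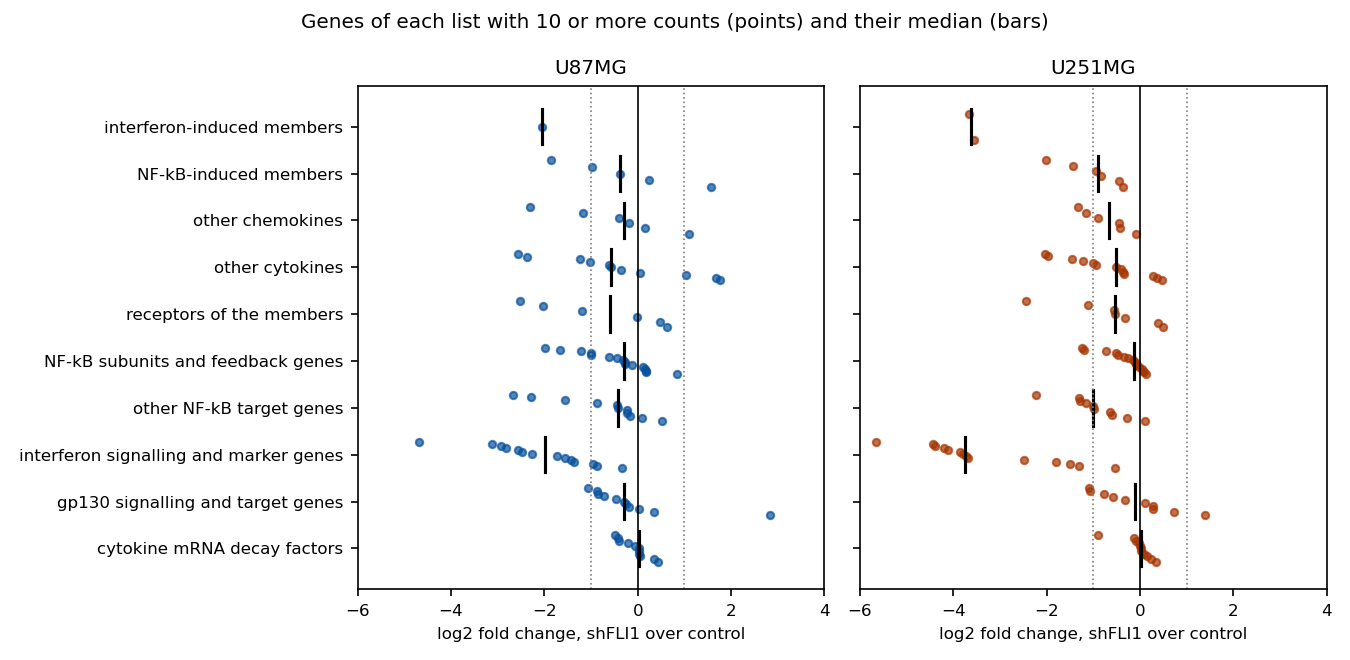
Log2 fold change of shFLI1 over control (x axis) for every gene with 10 or more counts in each list (y axis), in U87MG and in U251MG. Points are genes from 1 pair of libraries, black bars are list medians and dotted lines mark 2-fold. The interferon signalling and marker genes have medians of -2 and -3.76, and the cytokine mRNA decay factors 0.03 in each cell line.

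Other secreted factors were compared with the 9 genes. Of 28 other chemokine genes, 15 had a row and 6 could be assessed in each cell line. In U87MG 2 were called lower (*CXCL3* and *CCL26*) and 1 higher (*CCL28*), and in U251MG 2 were called lower (*CXCL3* and *CXCL16*) and 0 higher. *CCL26* was named after its values were seen, and could be assessed in U87MG only through its control, with 25 counts there and 8 in shFLI1. *CXCL3*, a paralog of *CXCL2*, was at 3.58 and 1.53 CPM in U87MG control and shFLI1 and at 2.75 and 1.03 CPM in U251MG control and shFLI1, with log2 fold changes of -1.18 and -1.33, but it did not pass the shared fit (edgeR adjusted p = 0.116). *CXCL16*, the ligand of CXCR6, changed by -0.18 and -1.16. Of 38 other cytokine genes, 29 had a row, and 4 of 11 were called lower and 2 higher in U87MG, against 5 of 13 lower and 0 higher in U251MG. Beside this and the other lists, 4.19% of all genes assessed were called lower and 7.21% higher in U87MG, and 4% and 4.17% in U251MG. *EBI3* (26 and 9 counts) and *TSLP* (12 and 7), called lower in U251MG, could be assessed there only through the control. *CNTF* (9 and 38 counts), called higher in U87MG, could be assessed there only through shFLI1. *CSF1*, the macrophage growth factor, was the most counted. It went from 492 to 83.7 CPM in U87MG and from 417 to 208 CPM in U251MG, and fell in the shared fit (log2 -1.79, edgeR adjusted p = 0.0243). *TNFSF10*, the death ligand TRAIL, also fell there (log2 -1.10, edgeR adjusted p = 0.00885). *IL11*, a gp130 cytokine like *IL6* and *LIF*, shared the opposed directions of *CCL2*. It was at 7.95 CPM in U87MG control, 27.1 in U87MG shFLI1, 29.4 in U251MG control and 10.7 in U251MG shFLI1, with log2 fold changes of 1.75 (called higher) and -1.46 (called lower), and a difference between them of 3.23 (counting interval, 2.85 to 3.61).

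Receptors for the 9 ligands were partly present. Of 17 receptor genes 11 had a row, and 3 of the 6 assessed in U87MG and 1 of the 7 in U251MG were called lower, with 0 higher in either. *ACKR3*, an atypical receptor that binds CXCL11 and CXCL12, was called lower in both cell lines from few reads, with 26, 7, 27 and 6 counts in the 4 libraries (shared fit, edgeR adjusted p = 0.0332). It reached 10 counts only in the control libraries. Its assessment in each cell line, and its entry into the shared fit, thus depended on the group where it was higher. *IL6ST*, which encodes gp130, changed by 0.48 and 0.39, and *LIFR*, the LIF receptor, by -0.01 and 0.50, and neither was called. *IL6R*, the ligand-binding IL-6 receptor, was called lower in U87MG (-1.18) and not in U251MG (-0.32). Of 11 gp130 signalling and target genes, 1 was called higher and 1 lower in U87MG, and 1 higher and 2 lower of 10 in U251MG, with medians of -0.29 and -0.11. *STAT3* changed by 0.36 and 0.11. *SERPINA3*, an acute phase protease inhibitor, was the gene called higher in both, from 7.16 to 52 CPM in U87MG and from 23.6 to 62.2 CPM in U251MG (shared fit, edgeR adjusted p = 0.00888), while *JUNB* fell in that fit (log2 -0.99, edgeR adjusted p = 0.01). The 11 genes for factors that bind or degrade cytokine mRNAs included 0 called in either cell line, with medians of 0.03 and 0.03; *ELAVL1*, which stabilises AU-rich mRNAs, changed by 0.04 and 0.03, and *KHSRP*, which promotes their decay, by 0.03 and -0.12.

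To describe each pattern by its neighbours, genes with 50 counts or more in a library of each cell line were ranked by the Euclidean distance of their 4 centred log2 levels from those of each member, and the nearest 3 of 12038 or 12039 candidates were taken. The 3 nearest to *CXCL10* were *OAS3* (distance 0.313 on the log2 scale), *USP18* (0.437) and *HERC6* (0.452). The *CXCL10* pattern rested on 3 counts and 1 count in the U87MG and U251MG shFLI1 libraries, and so on the prior count of 2. With a prior count of 0.25 its log2 fold change went from -2.06 to -2.59 in U87MG and from -3.56 to -5.01 in U251MG. *OAS3* was at 750.3, 135.7, 972.8 and 92.6 CPM in U87MG control, U87MG shFLI1, U251MG control and U251MG shFLI1. The nearest to *CXCL8* was *TNXB* (0.072), then *H2BC3* (0.214) and *TRIM14* (0.302), of which *TNXB* and the histone gene have near-identical copies that may share reads. *CCL2* was nearest to *ZFAND4* (0.216), *FAM72C* (0.231), a member of a near-identical family, and *FEZ1* (0.252). *LIF* was nearest to *SPAG17* (0.12), *WSCD1* (0.165) and *TUFT1* (0.176). For *CXCL2* the nearest was *CITED2* (0.0679) and for *IL6* *RAB11FIP5* (0.0976). With 4 libraries such distances are descriptions only.

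Markers of other cells were counted beside these results. Of 10 leukocyte markers 8 had a row, and their summed level was 5.5, 1.48, 10.6 and 3.04 CPM in U87MG control, U87MG shFLI1, U251MG control and U251MG shFLI1. That sum was lower in shFLI1 than in control libraries. In the controls it was carried mostly by *CD68*, a lysosomal protein that many cell types express, at 4.11, 0.54, 9.14 and 0.468 CPM in the same order. In U251MG the other 2 markers assessed were higher in shFLI1 without being called, *CD14* with 12 and 31 counts (log2 0.56) and *CSF1R* with 12 and 39 counts (log2 0.86), so that the list median was 0.56 there, against -1.45 over 2 markers in U87MG. The defining leukocyte marker *PTPRC* had 0, 0, 1 and 5 counts in the same order. The 5 endothelial markers summed to 16.2, 8.23, 7.68 and 14.7 CPM, and thus moved in opposite directions in the 2 cell lines, as *KDR* did at 10.3, 4.9, 6.84 and 13.7 CPM. Among 6 glial and glioma markers *GFAP* was called higher in both cell lines (log2 1.32 and 2.19). The part of any of these in the differences of the cytokines was not tested, and in bulk RNA fewer expressing cells and less RNA per cell cannot be told apart.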

How the data were processed

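Per the paper's methods and the labels, the authors cleaned the reads, aligned them to GRCh38 (GRCh38.p13 in the submitters' processing notes) with HISAT2 2.1.0 and computed FPKM with StringTie 1.3.4d. The deposited expected counts are estimates per RNA that need not be whole and were not normalized, and the counter behind them is not given in the sources used here. The deposited FPKM values were used as the authors computed them. TPM values and the authors' means, 10 columns in all, were left out.

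Counts of 185042 linear RNAs were summed by gene and rounded. Tools were edgeR 4.0.16 and DESeq2 1.42.0 under R 4.3.3, with Python 3.11.15 for the rest. Counts were scaled by TMM, with a prior count of 2. Fold intervals are 95% Clopper-Pearson intervals on the proportion of reads. Because amplified reads need not be independent molecules, intervals and floors reflect only counting error. In the fit over 4 libraries, genes were kept by filterByExpr and p-values adjusted by Benjamini-Hochberg over all genes, with 2 cell lines standing in for replicates. The scripts were checked on simulated counts. Positions are from GENCODE v44 on GRCh38.

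The members and gene lists were chosen with earlier results of these data known. Genes named from each list were drawn from the 4 with the highest mean CPM and from those called the same way in both cell lines. Not every such gene is named. Others are marked in the text or belong to a count of 5 or fewer. Alternatives covered scaling, prior count, filters, thinning, FPKM, transcripts and threshold.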

Additional observations from a re-analysis of the deposited data

Results flagged for a closer look

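Each of 2 genes changed in opposite directions in the cell lines. *CCL2*, the monocyte chemokine, changed on the log2 scale by 1.57 in U87MG but by -0.37 in U251MG. *LIF*, the gp130 cytokine, changed by 0.25 in U87MG but by -0.94 in U251MG. With 1 library per group the difference between the cell lines was not tested against replicates. Both directions held under the other scalings, the other prior count, thinning, FPKM and the main transcript alone.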

How the results depend on the processing

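Within the cell lines, 126 values were recomputed under alternatives: 116 stayed inside the counting interval of the main value, 10 moved outside it and 0 changed sign. The 116 include *CXCL11* in both cell lines and *CCL5* and *IL1B* in U87MG, with at most 3 counts. Their intervals had an open end or, for *CCL5*, ran from -4.74 to 2.83. Staying inside such an interval says little about how stable those values are. With at least 100 counts in a library, 1 member (*CXCL8*) was called in U251MG instead of 4. In U87MG *CXCL10* was not called with that filter, after thinning or on log2(FPKM + 1), and *CXCL2* was called with DESeq2 size factors, with a prior count of 0.25 and at 1.5-fold. In U251MG *IL1B* was not called on log2(FPKM + 1), *LIF* was called lower on its main transcript alone, and *LIF* and *IL6* at 1.5-fold.

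In the fit over 4 libraries, the members that passed for the knockdown rose from 1 to 2 with DESeq2 size factors and to 3 with genes of at least 1 count in any library, and dropped to 0 without the cell line block, where 2 had an unadjusted p below 0.05 in edgeR. Over all genes 512 passed, against 364 to 542 with other scalings, stricter filtering or DESeq2, 1303 with the 1-count filter and 0 without the block. The cell line difference had 0 members passing and 3 with the 1-count filter, and 3106 genes, against 1813 with DESeq2 and 531 without the knockdown block. For *CXCL2* that difference changed sign, to 0.041 with total counts and 0.013 with the 1-count filter. The causes were not tested. Control and shFLI1 libraries were paired by cell line in this fit, and with 1 library per group no other pairing exists. Depth limits *CXCL11*, *CCL5*, *IL1B* and *CXCL10* most.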
